A study of Mus musculus with 6 samples.

Results

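The Dlk1-Dio3 region of mouse chromosome 12 is an imprinted cluster, in which a gene is read mainly from the chromosome inherited from 1 parent. Its 6 best-known genes were taken by symbol from a table of 56980 Ensembl gene IDs, and each matched a single ID. Meg3, Rian and Mirg are the maternally expressed genes and make long noncoding RNAs. Dlk1, Rtl1 and Dio3 are the paternally expressed genes and encode proteins. The genes were selected on their knockout against control values in these same libraries, so their values in that contrast are a description, and no p-value is given for them.

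The libraries were made from total RNA of whole pancreatic islets of mice aged 14 weeks. The 3 control libraries came from SSBP3F/F animals, which carry floxed alleles of Ssbp3, a co-regulator that binds the cofactor LDB1. The 3 knockout libraries came from SSBP3F/F; MIP-CreER littermates, in which a Cre recombinase fused to an oestrogen receptor is driven by the mouse insulin promoter. MIP-CreER is known to carry a human growth hormone minigene beside Cre, and no libraries with the transgene and intact Ssbp3 were used here, so transgene and knockout cannot be told apart. Any tamoxifen treatment is not stated in the labels. Whether a library is 1 animal or a pool is not stated in them either, so SDs and p-values measure the spread between libraries, which may be partly technical.

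Within the cluster, the maternal chromosome is read in 1 direction through Meg3, a stretch antisense to Rtl1, Rian and Mirg. Rian is a host of small nucleolar RNAs, and Mirg is a host of microRNAs. A differentially methylated region between Dlk1 and Meg3, methylated on the paternal chromosome, keeps the maternal RNAs silent there. In human islets MEG3 is a beta-cell RNA, and lower MEG3 with higher methylation has been reported in islets of donors with type 2 diabetes.

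Levels are given as CPM, counts scaled to a common library size, on library sizes scaled by the trimmed mean of M-values. Library totals ran from 14907641 to 225428920 counts, and control 1 and knockout 1 were the shallowest of their groups. A floor of 3 counts, used where a gene has no reads, equals 0.0135 CPM in the deepest library and 0.194 CPM in the shallowest, and it covers counting error only. Beta-cell markers were abundant: the 10 listed markers took 19% to 24% of control counts and 13.6% to 17.9% of knockout counts. Ssbp3 itself lay at 65.8, 81.3 and 74.2 CPM in the controls and at 52.3, 58.1 and 57.1 CPM in the knockouts. Which exons were deleted was not stated in the labels, so this says little about the labels.

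The promoter sequence of Meg3 is shown because Meg3 is the first of the 3 RNAs along the maternal strand. Rian and Mirg have annotated starts of their own, and whether the 3 RNAs share a start was not tested. The window runs from 250 bases before to 50 bases after the upstream one of 2 RefSeq starts of Meg3 (build GRCm38.p6). Capitals mark a match to TGACGTCA, the palindromic cyclic AMP response element, matches to TATAAA on both strands that overlap each other, and a match to CCAAT.
Meg3 promoter: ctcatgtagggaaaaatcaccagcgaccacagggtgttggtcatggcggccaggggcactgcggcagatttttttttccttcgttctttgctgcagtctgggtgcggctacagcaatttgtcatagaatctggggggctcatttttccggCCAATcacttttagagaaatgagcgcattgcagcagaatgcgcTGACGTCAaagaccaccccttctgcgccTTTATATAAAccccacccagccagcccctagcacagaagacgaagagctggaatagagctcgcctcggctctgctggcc
The TGACGTCA match begins 57 bases before the start, the TATAAA matches 29 and 25 bases before it, and the CCAAT match 100 bases before it. Of 32851 RefSeq windows of the same length, 1.79% hold TGACGTCA, 13.6% hold TATAAA and 37.4% hold CCAAT on either strand. The windows at the annotated starts of Rian and Mirg hold neither TGACGTCA nor TATAAA, and that of Mirg holds 1 CCAAT. The core TAAT, which LIM-homeodomain partners of LDB1 recognise and which 58% of all windows hold, has 0 matches in this Meg3 window, 2 in that of Rian and 1 in that of Mirg. No match says only that these letters are not in the window. The Meg3 window has 53.7% GC and a CpG content of 0.602 of that expected from its bases, against medians of 52.7% and 0.384 over all windows.

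RefSeq lists 58 microRNA hairpins between Dlk1 and Dio3, 54 of them on the strand of Meg3, with 113 named mature microRNAs. These have 104 distinct seeds (bases 2 to 8, in capitals below), and the 9 seeds that are shared join 2 microRNAs each. The first pair is shown because it is cut from the RNA antisense to Rtl1, the next 3 because they have been reported in work on islets, and the last pair because it shares a seed.
miR-127-3p: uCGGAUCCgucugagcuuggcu
miR-136-5p: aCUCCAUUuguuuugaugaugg
miR-376a-3p: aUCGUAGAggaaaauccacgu
miR-495-3p: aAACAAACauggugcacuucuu
miR-410-3p: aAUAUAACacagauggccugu
miR-379-5p: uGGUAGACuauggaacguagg
miR-1193-5p: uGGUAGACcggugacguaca
These libraries do not measure mature microRNAs. The 59 microRNA genes of the region that have a row held 47 counts in all 6 libraries together, in 11 of the genes, and none passed the filter on low counts. The host RNAs below are therefore the readout of this strand.

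Meg3 (ENSMUSG00000021268), the first RNA of the maternal strand, was at 185 CPM in control 1, 138 in control 2 and 131 in control 3. Knockout 1 held 12.9 CPM, knockout 2 held 10.45 and knockout 3 held 7.32. The groups did not overlap, and the highest knockout library was far under the lowest control library. The group means were 151 ± 29.3 and 10.2 ± 2.81 CPM (SD, n = 3 each), which left 6.76% of the control level. The log2 fold change, knockout over control, was -3.92 (SE 0.219), and 13 of the 18558 genes tested had a lower one.

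Rian (ENSMUSG00000097451), the host of small nucleolar RNAs, measured 277, 237 and 216 CPM in the controls and 86.4, 84.5 and 95.05 CPM in the knockouts. The groups again did not overlap, but 36.4% of the control level remained. The log2 fold change was -1.46 (SE 0.125), and the means were 243 ± 31.0 and 88.7 ± 5.63 CPM (SD, n = 3 each). Rian was the most abundant of the 6 genes in all 6 libraries when set per kilobase of exon (below).

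Mirg (ENSMUSG00000097391), the microRNA host at the far end of the strand, measured 9.03, 10.9 and 9.09 CPM in the controls and 2.52, 1.37 and 1.17 CPM in the knockouts. Here too each knockout library was below each control library. The means were 9.67 ± 1.06 and 1.69 ± 0.731 CPM (SD, n = 3 each), so 17.4% of the control level remained. On the log2 scale the difference was -2.62 (SE 0.296). The 3 RNAs together took 0.0348% to 0.0474% of the counts in control and 0.00922% to 0.0116% in knockout libraries. In whole islets, fewer cells that make these RNAs and less RNA per cell cannot be told apart, and counts of a gene do not show from which allele they came.

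**Figure D1:**
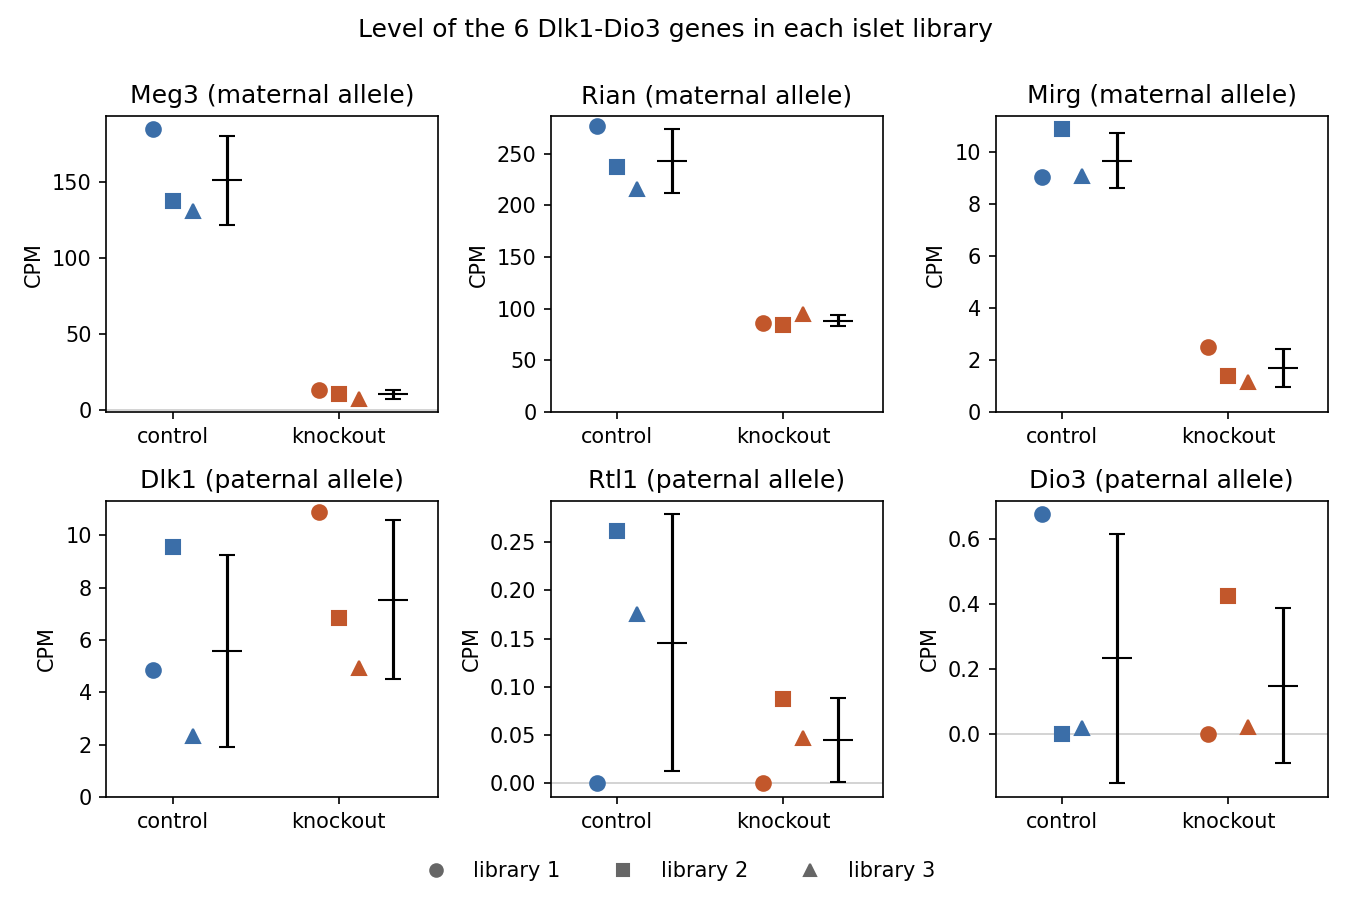
Level of each of the 6 genes in CPM (vertical axes, linear, each gene on its own scale) in the 3 control (blue) and 3 knockout (orange) libraries; symbols mark the library number and black bars the mean and SD of the group. Meg3, Rian and Mirg separate the groups, while Dlk1, Rtl1 and Dio3 overlap.

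Dlk1 (ENSMUSG00000040856), a transmembrane protein with epidermal growth factor repeats that acts on Notch signalling, measured 4.86, 9.53 and 2.34 CPM in the controls. In the knockouts it measured 10.9, 6.84 and 4.91 CPM. The groups overlapped, since control 2 stood above knockout 2 and knockout 3. The means were 5.58 ± 3.65 and 7.54 ± 3.04 CPM (SD, n = 3 each), with a log2 fold change of 0.41 (SE 0.526). That value rests on single libraries: it was 1.10 without control 2, 0.02 without control 3 and 0.08 without knockout 1. Without the shallowest library of each group it was 0.00.

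Rtl1 (ENSMUSG00000085925), a protein derived from a retrotransposon and needed in the placenta, was close to the limit of detection. It had 0, 21 and 39 counts in the controls and 0, 7 and 5 in the knockouts, that is 0.261 and 0.176 CPM in control 2 and 3 against 0.0874 and 0.0474 CPM in knockout 2 and 3. The 0 counts of control 1 and knockout 1 allow up to 0.169 and 0.194 CPM, so the shallow libraries say little. Rtl1 lies on the strand opposite to Meg3, Rian and Mirg, and the strand setting of the counting is not given, so its few reads cannot be told apart from those of the maternal antisense RNA.

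Dio3 (ENSMUSG00000075707), the deiodinase that inactivates thyroid hormones, had 12, 0 and 4 counts in the controls and 0, 34 and 2 in the knockouts. It was thus at 0.677 CPM in control 1 and 0.424 CPM in knockout 2, and at or under 0.0190 CPM in the libraries with 4 or 2 counts. Its zeros allow up to 0.0373 CPM in control 2 and 0.194 CPM in knockout 1. Rtl1 and Dio3 did not pass the filter on low counts, so 4 of the 6 genes were tested. Fitted without a filter, Rtl1 had a log2 fold change of -1.54 (SE 1.48) and Dio3 of -0.31 (SE 1.38), both with errors about as large as the value or larger.

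Of the 4 genes tested, 3 were called lower and none higher in the fit across all genes, at an edgeR adjusted p threshold of 0.05. Over all 18558 genes tested, 3.35% were called lower and 3.72% higher, while 14.1% lay lower and 28% lay either lower or higher without overlap between the groups. Because the genes were picked with this contrast known, nothing is read from their count. Over 15 alternative settings the log2 fold change ran from -4.08 to -3.71 for Meg3, from -1.52 to -1.33 for Rian and from -2.98 to -2.40 for Mirg.

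The 3 maternal RNAs were not lowered alike. Within a library, the ratio of Rian to Meg3 counts was 1.5, 1.72 and 1.65 in the controls and 6.68, 8.08 and 13.0 in the knockouts. Normalization between libraries does not enter that ratio, and the groups did not overlap in it. Meg3 to Mirg went the other way, at 20.5, 12.7 and 14.4 in the controls and 5.13, 7.61 and 6.28 in the knockouts. Meg3 supplied 35.7% to 39.3% of the counts of the 3 RNAs in control libraries and 7.07% to 12.7% in knockout libraries. The widest 95% Wilson interval of a library, that of knockout 1, was 11.1% to 14.4%; it covers counting error only and is too narrow if both reads of a pair were counted. Rian to Mirg was 30.6, 21.8 and 23.7 in the controls and 34.3, 61.5 and 81.5 in the knockouts, without overlap, though knockout 1 lay close to control 1. The first RNA of the strand thus kept the smallest part of its control level, the last kept more, and the middle one kept the most.

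**Figure D2:**
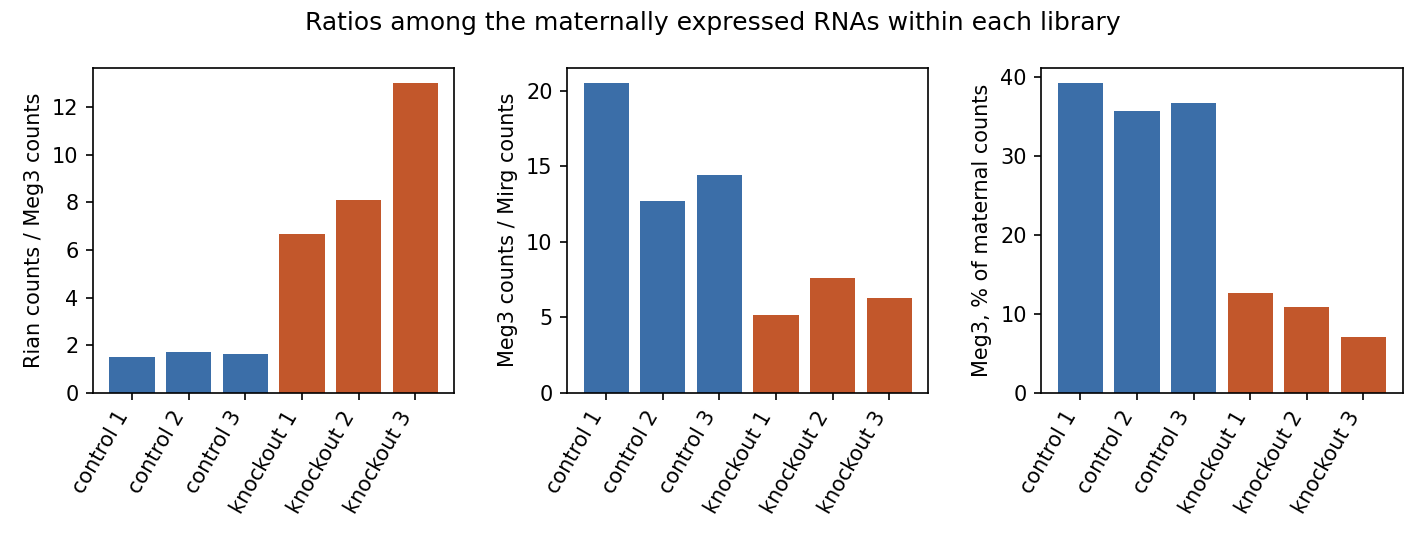
Ratios among the maternally expressed RNAs within each library, from raw counts: Rian to Meg3, Meg3 to Mirg, and Meg3 as a percentage of Meg3, Rian and Mirg together (vertical axes from 0), for control (blue) and knockout (orange) libraries. Rian to Meg3 is 1.5 to 1.72 in the controls and 6.68 to 13.0 in the knockouts.

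Per kilobase of annotated exon, which allows genes to be compared, the control order was Rian (13.3 ± 1.70 CPM per kb), Meg3 (8.36 ± 1.62), Mirg (1.33 ± 0.145), Dlk1 (0.985 ± 0.646), Dio3 (0.114 ± 0.190) and Rtl1 (0.0229 ± 0.0210; SD, n = 3). Rian and Meg3 did not overlap, at 11.8 to 15.2 and 7.25 to 10.2 CPM per kb, whereas Mirg lay inside the range of Dlk1 and Dio3 overlapped Rtl1. In the knockouts Dlk1 moved to the second place. It stood at 1.33 ± 0.537 CPM per kb behind Rian at 4.86 ± 0.309 and ahead of Meg3 at 0.566 ± 0.156 and Mirg at 0.231 ± 0.1. The lowest Dlk1 value, 0.868, was above the highest Meg3 value, 0.715, and the lowest Meg3 value, 0.405, was above the highest Mirg value, 0.346. Exon lengths are unions over all annotated isoforms (18.1 kb for Meg3, 18.2 kb for Rian), so a gene with long rare isoforms is set too low.

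The maternal genes supplied 98.8%, 97.5% and 99.3% of the counts of the 6 genes in control 1, 2 and 3. In knockout 1, 2 and 3 they supplied 90.4%, 92.9% and 95.4%. Each knockout library lay below each control library. Counts of the maternal RNAs were 97.0, 40.5 and 152 times those of Dlk1 in the controls and 9.38, 14.1 and 21.1 times in the knockouts, with no overlap. Rtl1 and Dio3 supplied few counts, so both measures mainly restate the low maternal RNAs beside Dlk1. The genes were selected on this contrast, so the lack of overlap is a description and no further result.

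Other genes within and around the cluster were compared between the groups. The annotation (GENCODE M21, a release on GRCm38, used for gene order only) places 93 further genes with a row between Dlk1 and Dio3, and 74 of them had no count in any library. Of the rest, 1 passed the filter, the processed pseudogene Gm3379, at 45.7 ± 8.33 CPM in control and 40.1 ± 9.42 CPM in knockout libraries (SD, n = 3; log2 fold change -0.19, edgeR adjusted p = 0.588). Reads of a processed pseudogene can come from its parent gene. B830012L14Rik, a noncoding RNA between Rian and Mirg on the same strand, did not pass the filter: it had 6, 10 and 31 counts in the controls and 0, 0 and 1 in the knockouts. It was 0.339, 0.124 and 0.140 CPM in the controls and 0.00948 CPM in knockout 3, while the zeros allow up to 0.194 CPM in knockout 1 and 0.0375 CPM in knockout 2. Fitted without a filter it was not called (log2 fold change -5.01, SE 2.11, edgeR adjusted p = 0.154). The 18 small nucleolar RNA genes of the region with a row held 4 counts in all.

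Outside the cluster, the 10 nearest protein-coding genes on each side were taken, and 19 of the 20 were tested. None was called, against 7.07% of all genes. An unadjusted p under 0.05 by edgeR was found for 3 of the 19, against 21.6% of all genes tested, and DESeq2 called 2 and limma-voom 0. Their log2 fold changes ran from -0.88 to 0.39 with a median of -0.13, beside 0.00 over all genes tested. Of the 19, 12 lay below 0, beside 50.2% of all genes. Without overlap between the groups, 3 lay lower and 1 higher, against 14.1% and 14% of all genes. So few genes cannot place an edge of the low levels. For Begain, next to Dlk1, the log2 fold change was -0.04 (SE 0.661; adjusted p = 0.981 by edgeR). For Ppp2r5c, the next gene beyond Dio3 and a regulatory subunit of protein phosphatase 2A, it was -0.14 (SE 0.113; adjusted p = 0.542 by edgeR). Cinp, a gene of DNA replication, had -0.57 (edgeR adjusted p = 0.0542) and Wars, the tryptophanyl-tRNA synthetase, -0.44 (edgeR adjusted p = 0.0687). Cinp was called in 5 of 15 alternatives, among them without control 3 (0.0374), and Wars in 4, among them without control 1 (0.0339); both were named after their values were seen.

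**Figure D3:**
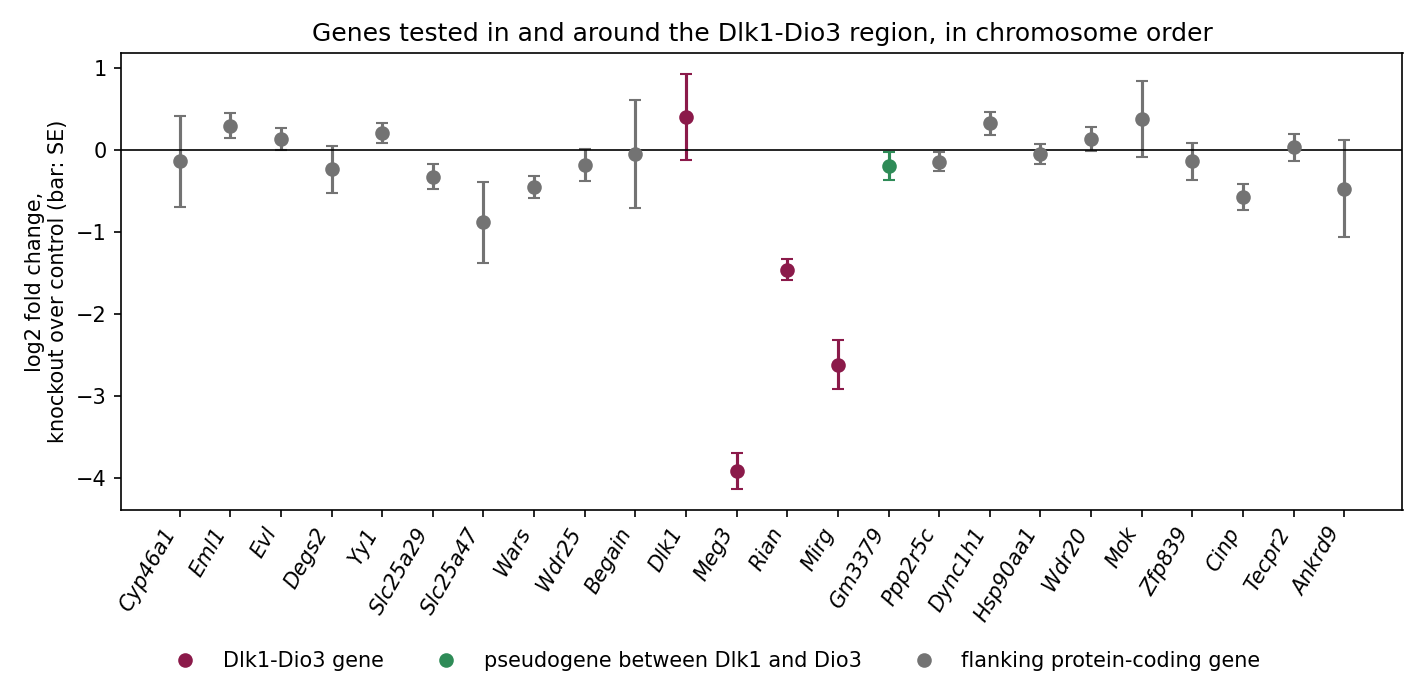
Log2 fold change, knockout over control, with its standard error (vertical axis), for the genes tested in and around the cluster in chromosome order (evenly spaced, not to scale). Meg3, Rian and Mirg lie at -3.92, -1.46 and -2.62, while the 19 flanking genes lie between -0.88 and 0.39.

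Some other noncoding RNAs of the nucleus were low in the same libraries. Of 13 tested on a list of such RNAs, 5 were lower and 1 was higher by edgeR. Over all genes tested, 3.35% were called lower and 3.72% higher. The median log2 fold change of the list was -1.51, beside 0.00 over all genes. This list was chosen with earlier results of these data known, so its count and median are a description. Neat1, the scaffold of paraspeckles, fell from 122 ± 12.9 to 19.6 ± 3.54 CPM (edgeR adjusted p = 3.03e-06). Firre, which acts in nuclear architecture, fell from 16.6 ± 1.22 to 1.43 ± 1.16 CPM (adjusted p = 0.00532), and Snhg14, the long RNA of the imprinted Snrpn region, from 2.46 ± 0.894 to 0.475 ± 0.137 CPM (0.0100; SD, n = 3). Malat1, of nuclear speckles, fell from 116 ± 46.6 to 26.1 ± 8.32 CPM (edgeR adjusted p = 0.0297; named after its value was seen), a call lost without control 2, knockout 2 or knockout 3 (0.121, 0.117 and 0.105). Not all such RNAs were low: Peg13, an imprinted noncoding RNA, rose from 40.7 ± 4.11 to 61.9 ± 5.85 CPM (adjusted p = 0.0133 by edgeR), whereas Tug1 was not called (log2 fold change 0.33, adjusted p = 0.113). The call of Peg13 was lost without control 1, control 2 or knockout 1 (0.0634, 0.0653 and 0.0622). Without control 2 the list had 3 called RNAs in place of 6 and a median of -0.87, and without the shallowest library of each group also 3 and a median of -0.81. Its median was -0.89 without knockout 3 and -0.72 without a filter on low counts. The part of RNA quality or of RNA preparation in the low levels of Meg3, Rian and Mirg was not tested.

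**Figure D4:**
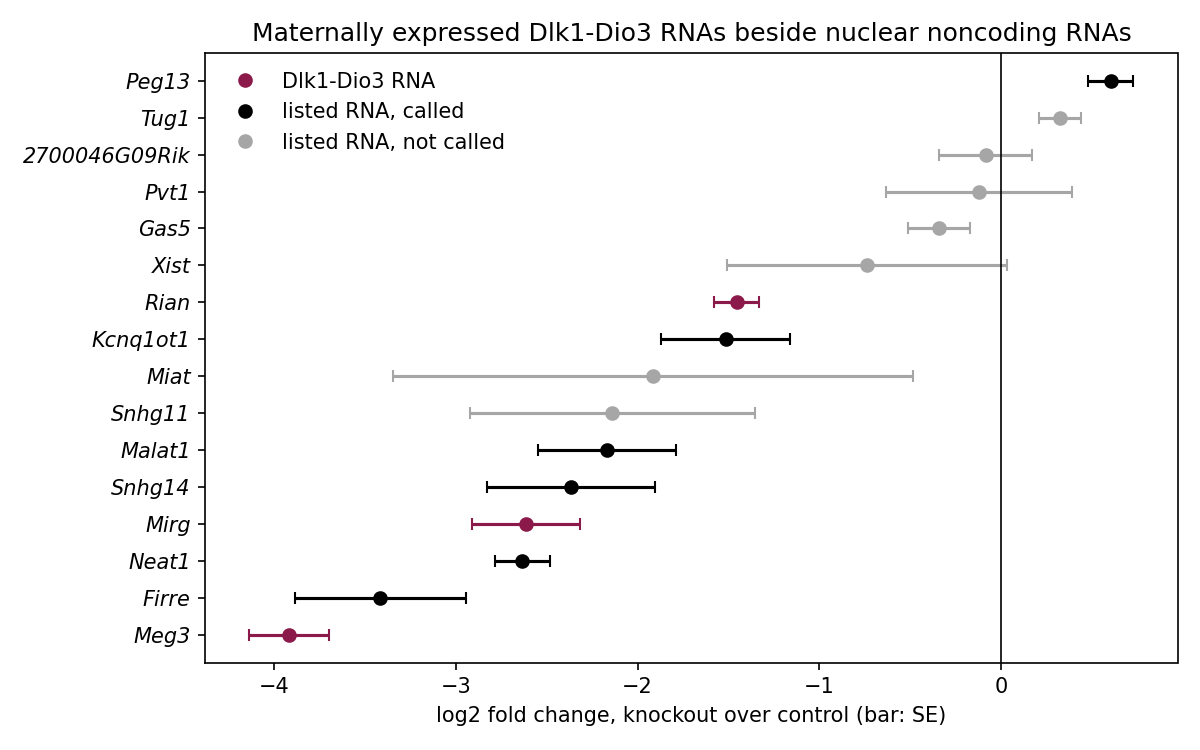
Log2 fold change, knockout over control, with its standard error (horizontal axis), of Meg3, Rian and Mirg (dark red) and of the 13 listed nuclear noncoding RNAs tested, called (black) or not called (grey) by edgeR at an adjusted p of 0.05. Peg13 and Tug1 lie above 0, and Neat1, Firre, Snhg14, Kcnq1ot1 and Malat1 lie between -3.41 and -1.51.

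The genes whose profile over the 6 libraries was most like that of Meg3 were found by the root-mean-square difference of log2 CPM, centred on the mean of the libraries (offset 0.1 CPM), among 12574 named genes with a mean of at least 1 CPM. Neat1 was nearest (0.658), followed by Rgs11, a regulator of G-protein signalling (0.706), Dapl1 (0.709), Firre (0.749) and Slc28a2, a nucleoside transporter (0.763). Mirg would have stood between Dapl1 and Firre (0.733), and Rian was farther away (1.26). Dapl1 measured 24.4, 42.0 and 33.8 CPM in the controls and 2.98, 4.64 and 4.53 CPM in the knockouts. With 2 groups so far apart, likeness here mostly means a drop of similar size.

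For Dlk1 the nearest genes were Dusp9, a MAP kinase phosphatase (0.295), and Lox, which crosslinks collagen (0.299). Gipc2 (0.313), Csrp2 (0.318) and Pabpc1l (0.333) followed. The distance is not scaled to the spread of a profile, so these distances cannot be set against those of Meg3. Lox measured 1.92, 3.91 and 1.16 CPM in the controls and 2.78, 2.98 and 1.89 CPM in the knockouts, with control 2 highest and control 3 lowest among the controls, as for Dlk1. The distance of Dlk1 to Meg3 was 2.31.

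Marker levels of other cells were compared between the groups, since whole islets hold several types. Beta-cell markers took a smaller share of the counts in the knockouts without overlap (above), and 3 of the 10 were called lower by edgeR. Among all genes tested, 3.35% were called lower and 3.72% higher. The summed share of the 4 delta-cell markers, of which 2 were called lower, was smaller too (0.327% to 0.478% in control, 0.204% to 0.268% in knockout libraries), as was the sum of the 7 duct-cell markers (0.176% to 0.204% and 0.104% to 0.162%), of which 2 were called higher and 0 lower. The summed share of the 7 endothelial markers, of which 1 was called higher, was larger (0.0211% to 0.0228% and 0.0261% to 0.0315%). Alpha-cell (7), PP-cell (2), acinar (13), stromal (8), immune (8) and Schwann-cell (6) markers overlapped between the groups, and no marker of the 10 lists was at 0 in all libraries. In these overlapping lists 1 acinar marker was called lower and no other marker was called. The alpha-cell markers took 2.04% to 2.90% of control and 1.77% to 2.41% of knockout counts, and the acinar markers 1.77% to 3.16% and 1.55% to 4.46%. Summed PP-cell levels were 0.526% to 0.809% and 0.474% to 0.631%. For stromal cells they were 0.0103% to 0.0185% and 0.0100% to 0.0150%, for immune cells 0.00650% to 0.00798% and 0.00766% to 0.0125%, and for Schwann cells 0.00139% to 0.00240% and 0.00119% to 0.00229%. The part of these shares in the level of Meg3 was not tested.

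Some genes of growth hormone and prolactin signalling were higher in the same knockout libraries, which carry the transgene. Of 12 tested, 6 were called higher by edgeR and none lower, beside 3.72% and 3.35% of all genes. Since the list was chosen with earlier results of these data known, its count and median are a description. The median log2 fold change of the 12 was 0.52. For Prlr, Socs3 and Igf1 it was below 0 (-0.34, -0.20 and -0.17), and none of them was called. Stat5a, Ghr and Bcl6 were not called either. Tph1, the first enzyme of serotonin synthesis, was at 0, 0.124 and 0.0722 CPM in the controls and at 11.6, 7.99 and 6.35 CPM in the knockouts (edgeR adjusted p = 7.86e-06). Cish and Socs2 are feedback inhibitors of STAT5 signalling. Cish rose from 16.4 ± 1.18 to 64.0 ± 12.6 CPM (adjusted p = 2.34e-05 by edgeR; SD, n = 3). The level of Socs2 rose from 26.8 ± 2.50 to 81.4 ± 19.7 CPM (adjusted p = 0.000164 by edgeR). The part of the transgene in the level of Meg3 was not tested.

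Factors that set or keep imprints are given beside the 3.72% of all genes tested called higher and the 3.35% called lower. Of 24 tested, which include the DNA methyltransferases, TET enzymes, the zinc-finger proteins ZFP57 and ZFP445, and the Polycomb complex PRC2, 1 was higher and none lower by edgeR, with 5 at an unadjusted p under 0.05, as 21.6% of all genes were. The gene called was Rbbp7, a histone-binding subunit of PRC2 and other complexes, which rose from 164 ± 5.27 to 246 ± 16.1 CPM (edgeR adjusted p = 0.00807; 0.138 without the shallowest library of each group). The median log2 fold change of the list was 0.13, and 7 of the 24 lay below 0, beside 50.2% of all genes. Without overlap between the groups, 6 lay higher and 1 lower, against 14% and 14.1% of all genes.

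Calls among imprinted genes of other regions are given beside the 7.07% of all genes tested that were called in either direction. Of 14 maternally expressed genes tested, 1 was higher by edgeR, and of 23 paternally expressed genes 1 was higher and 2 were lower, with medians of -0.01 and -0.26. A log2 fold change below 0 was found for 8 of the 14 and 17 of the 23, beside 50.2% of all genes tested. Without overlap between the groups, 1 of the 14 maternally expressed genes lay lower and 3 higher. Of the 23 paternally expressed genes, 6 lay lower and 2 higher without overlap. Over all genes tested, 14.1% lay lower and 14% higher in this way. Osbpl5, a lipid transfer protein, rose from 23.4 ± 1.70 to 34.0 ± 4.47 CPM (adjusted p = 0.0366 by edgeR). Kcnq1ot1, the noncoding RNA of the Kcnq1 cluster, fell from 9.95 ± 4.16 to 3.38 ± 1.28 CPM (edgeR adjusted p = 0.0272), and Inpp5f, a phosphoinositide phosphatase, fell by 0.58 on the log2 scale (0.0358); the gene called higher was Peg13. These calls were fragile. Osbpl5 was not called without control 1, 2 or 3 or without knockout 1 or 3 (adjusted p 0.0569 to 0.171). Kcnq1ot1 was not called without control 1 or 2 or knockout 1 or 3 (0.101 to 0.132) or by limma-voom (0.175), and Inpp5f not without control 2 or 3 or knockout 1 or 2 (0.0626 to 0.152).

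Dlk1 belongs to the Notch pathway, of which 25 other genes were tested. By edgeR 1 was lower and none higher, beside 3.35% and 3.72% of all genes tested. By the same test 6 had an unadjusted p under 0.05 (21.6% over all genes), and the median log2 fold change was -0.07. The gene called was Egfl7, a secreted protein of endothelium that binds Notch, from 25.1 ± 3.91 to 16.5 ± 1.97 CPM (edgeR adjusted p = 0.0392). The call was lost without any 1 of control 1, control 2, knockout 1, knockout 2 and knockout 3 (0.0576 to 0.215). Of 8 relatives of Rtl1 derived from retrotransposons, 0 were called by edgeR, beside 7.07% of all genes tested. Of these relatives 0 had an unadjusted p under 0.05, and Rtl8a was nearest (log2 fold change -0.18, edgeR adjusted p = 0.427). DESeq2 and limma-voom called 0 too.

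Dio3 belongs to thyroid hormone metabolism, where 6 of 18 other genes were higher and none lower by edgeR. Of all genes tested, 3.72% were called higher and 3.35% lower. The median log2 fold change of the 18 was 0.38. This list, too, was chosen with earlier results of these data known, so its count and median are a description. Dio1, the deiodinase that can activate thyroxine, rose from 78.3 ± 4.97 to 134 ± 10.6 CPM (edgeR adjusted p = 0.00167). Thrb, a thyroid hormone receptor, rose from 6.23 ± 0.592 to 11.7 ± 0.943 CPM (adjusted p = 0.0116), and Hr, a corepressor induced by thyroid hormone, from 2.18 ± 0.408 to 5.25 ± 0.693 CPM (0.0164; SD, n = 3). Thrb lost its call without control 2 (0.0641), and Hr without control 1, knockout 1 or knockout 2 (0.0545, 0.0576 and 0.0504). Leaving out control 1, control 2 or knockout 1 left 2 called genes in the list, leaving out knockout 3 left 3, and leaving out the shallowest library of each group left 0. Dio3 itself, as above, had at most 34 counts in a library.

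Some genes have been reported downstream of this region in islets: Mafa, Pdx1, Ezh2 and the cohesin genes Rad21 and Smc3 with Sin3a for Meg3, and Iapp and Trp53inp1 for its microRNAs. Of these 8, 1 was higher and 1 lower by edgeR, where 3.72% and 3.35% of all genes were. Their median log2 fold change was 0.01, and that of all genes 0.00. Unadjusted edgeR p-values fell under 0.05 for 4 of the 8 (21.6% over all genes). The groups stood fully apart for 3 lower and 2 higher genes of the 8 (14.1% and 14% over all genes). Pdx1 was among the lower ones, at 93.6 ± 5.77 CPM in control and 71.9 ± 10.5 CPM in knockout libraries, but missed the threshold (0.0888 after adjustment in edgeR). Mafa, the transcription factor of mature beta cells, measured 235, 182 and 249 CPM in the controls and 87.6, 75.4 and 138 CPM in the knockouts (edgeR adjusted p = 0.0156). Trp53inp1, a stress protein reported as a target of microRNAs of the MEG3 locus, measured 33.2, 32.9 and 28.3 CPM in the controls and 39.2, 44.0 and 48.1 CPM in the knockouts (log2 fold change 0.48, SE 0.129, edgeR adjusted p = 0.0417). Mafa lost its call without control 1, control 3 or knockout 1 (0.0607, 0.0625 and 0.0611), and Trp53inp1 without any single library (0.0587 to 0.115) and with upper-quartile factors (0.0588). Neither Iapp, which encodes amylin (log2 fold change -0.26, edgeR adjusted p = 0.469), nor Ezh2, the methyltransferase of PRC2 (0.03, 0.965), was called. Iapp did lie lower without overlap, at 23310, 23820 and 24280 CPM in the controls and 21460, 19530 and 18540 CPM in the knockouts. Of 20 genes of the p53 pathway, which Meg3 has been reported to activate in tumour cells, Trp53inp1 was the 1 called. Of all genes tested, 7.07% were called in either direction. The median log2 fold change of the 20 was 0.07.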

How the data were processed

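Total RNA of whole islets was sequenced in 6 libraries, 3 per genotype. The submitters' processing notes name STAR 2.7.3a and featureCounts, besides Trim Galore 0.6.7 and FastQC 0.11.9, and the build GRCm39 (mm39). The sources used here give no annotation release, strand or pair settings. The authors deposited unnormalized counts per gene ID, of which 62.3% to 73.2% of the nonzero values in a library were even, so both reads of a pair may have been counted. Column names give the group but not the animal, and libraries are numbered after them. Symbols matched 52073 of 56980 IDs. Libraries of a group differed by more than counting noise, with a mean chi-square per gene of at least 39.8.

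Counts were fitted in R 4.3.3 with edgeR 4.0.16 (filterByExpr, TMM factors, robust quasi-likelihood test, Benjamini-Hochberg adjustment over 18558 genes), which was tested on simulated data. SEs come from the log2 fold change and the F statistic. Alternatives were other size factors, hormone and acinar genes left out of library sizes, other filters, DESeq2 1.42.0, limma-voom 3.58.1, each library left out, both shallowest left out, and, added after seeing the data, halved counts. Members, lists and tests were chosen with earlier results of these data known, so counts and medians of the lists are a description. Named were all members, region genes past the filter, called and nearest flanking genes, up to 3 called genes with the smallest p per list (or the 1 with the smallest p), and the 5 genes most like Meg3 and Dlk1. Coordinates are not given, since the annotation used for gene order and exon length is on GRCm38. Promoter and microRNA sequences are from RefSeq; 5 of the 6 genes had a promoter entry.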

Additional observations from a re-analysis of the deposited data

How the results depend on the processing

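The members' values are a description under each alternative too, since they were selected on this contrast. Leaving out single libraries gave -4.08 to -3.71 for Meg3, -1.52 to -1.35 for Rian, -2.93 to -2.40 for Mirg and 0.02 to 1.10 for Dlk1. The mean maternal share of the 6 genes then ran from 98.2% to 99.1% in control and 91.6% to 94.2% in knockout libraries.

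Over all genes tested, 691 were called higher and 621 lower, but 613 higher and 829 lower with upper-quartile factors. Together these 1312 calls stood against 2153 without a filter, 2094 with DESeq2 and 124 without the shallowest library of each group. Leaving out single libraries gave 519 to 1309 over all genes (661 without control 1, 519 without control 2, 610 without knockout 1). It gave 0 to 1 for flanking genes, 0 to 1 for maternally expressed imprinted genes elsewhere, 0 to 4 for paternally expressed ones, 0 to 1 for Notch genes, 2 to 5 for thyroid hormone genes, 0 to 1 for p53 genes, 0 to 2 for genes reported downstream of the region and 3 to 6 for nuclear noncoding RNAs. Without the shallowest library of each group, 0 imprint control factors, 0 maternally and 0 paternally expressed imprinted genes, 0 Notch, 0 thyroid hormone, 0 p53 and 0 downstream genes and 3 nuclear noncoding RNAs were called, with fewer samples.

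Flanking genes called were 2 with upper-quartile factors, without a filter and with DESeq2, and 1 with a filter of 1 CPM. Maternally expressed imprinted genes called were 2 with upper-quartile factors, without a filter and with DESeq2. Notch genes called were 2 with limma-voom. p53 genes called were 0 with upper-quartile factors and 2 with DESeq2 size factors, without a filter, with a filter of 1 CPM, with DESeq2, with limma-voom and with halved counts. The cause of these shifts was not tested. Of 32 named genes that are no members, 21 were called, 11 of them whichever library was left out and 7 under all 15 alternatives; no called gene changed direction.

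No paired analysis was possible because the labels give the libraries of both groups fewer than 2 shared numbers and the columns do not say which animal they hold. Depth limited Rtl1, Dio3 and the small RNA genes.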
